A study of Drosophila melanogaster with 13 samples.

Results

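CG17917, CG17919, CG10298 and Pebp1 are 4 Drosophila genes of the phosphatidylethanolamine-binding protein (PEBP) family, and they are followed here through every library of a study of male secondary cells. They were taken from the count table by symbol, as 4 of its 16727 genes. Pebp1 is the current symbol of the row listed as CG18594. The genes were picked because their levels were already known to differ between sorted cells, ribosome immunoprecipitations and the D1 mutant. Those differences are therefore described below with no test. Members are tested only between the miP mutant and wild type, a comparison that the choice does not name, though miP cells were among the sorted cells in which their levels were known. The 5 further genes with a PEBP domain, CG6180, CG7054, CG30060, a5 and mRpL38, serve for comparison and are tested where their counts passed the filter on low values, which was so for 3 of them in sorted cells and 4 in the IP comparisons.

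PEBP proteins are small soluble proteins with a conserved pocket that binds small anionic ligands such as phospholipid head groups. The mammalian protein PEBP1 is also known as Raf kinase inhibitor protein, because it binds Raf-1 and restrains signalling to MEK and ERK, and plant relatives such as FLOWERING LOCUS T control flowering. In flies, Pebp1 has been linked to defence against bacteria and a5 was described as an odorant-binding antennal protein, while mRpL38 is a subunit of the mitochondrial ribosome. The biochemical roles of CG17917, CG17919 and CG10298 are less well known.

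Secondary cells are a minor cell type at the tip of the male accessory gland that secretes into the seminal fluid alongside the more numerous main cells. All animals were males aged 5 to 11 days that carried the D1:GAL4 driver, which sets the cells that make GFP or the tagged ribosomal protein. The IPs started from glands, and markers of other cell types were read in them too, as given below. The 3 ribosome immunoprecipitations (IPs) came from UAS GFP-RPL10Ab, D1:GAL4 glands and were pulled down with anti-GFP. Sorted GFP-positive cells were sequenced from D1:GAL4, UAS-GFP; iab-6cocuD1 males (D1, a lesion in the iab-6 domain of the Bithorax complex), from D1:GAL4, UAS-GFP; delta MSAmiP males (miP, lacking a micropeptide of the male-specific iab-8 transcript) and from D1:GAL4, UAS-GFP males (wild type), with 3 libraries each. A single control IP came from UAS GFP, D1:GAL4 glands, in which GFP is not joined to a ribosomal protein. IPs and sorted cells differ in transgene, in preparation and in the RNA fraction isolated, and these cannot be told apart in any difference between them.

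Library totals, in units of 1e6 counts, lay between 3.70 in the control IP and 26.1. Values are given as CPM, the count of a gene per 1e6 counts of its library, and levels of different genes are compared as CPM per kilobase of exon. Nothing tied replicate libraries to separate animals beyond the labels, so p-values measure the spread between these samples. In bulk libraries a smaller number of expressing cells and less RNA per cell cannot be told apart. All 9 secondary-cell markers checked were detected, and their summed level was 95625 to 168262 CPM in the IPs and 351700 to 584972 CPM in the 9 sorted libraries, against 10702 CPM in the control IP. The transcription factor gene abd-A, a marker of these cells, was at 0 to 0.0938 CPM in D1 and 175 to 210.1 CPM in wild type, while Abd-B was at 127 to 166 CPM in D1 and 96.4 to 119 CPM in wild type. The host transcript of MSAmiP, iab-8, was at 720.4 to 879 CPM in miP and 759 to 955 CPM in wild type, which does not check the deletion itself. Markers of main cells, of which 14 of 15 were detected and Acp95EF was at 0 in every group, summed to 16354 to 25056 CPM in the IPs, 85.4 to 1838 CPM in sorted cells and 39061 CPM in the control IP. Replicate 1 of both mutants stood apart from the other libraries of its genotype.

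Of the 4 genes, 3 form a tandem cluster. On chromosome arm 3R of the dm6 build, plus strand, CG17917 lies at 6341968 to 6342873, CG10298 at 6343002 to 6343799 and CG17919 at 6344029 to 6345087. The gaps between them are 128 and 229 bases, and the whole cluster spans 3120 bases. Each gene has 2 exons, with exonic lengths of 706 nt for CG17917, 745 nt for CG10298 and 778 nt for CG17919. The last 88 bases of CG17919 overlap SmD2, a spliceosomal Sm protein gene on the minus strand, and the libraries keep no strand, so reads in that stretch cannot be assigned to one of them. Pebp1, a gene of 1 exon and 646 nt, lies elsewhere on 3R at 22466034 to 22466679, only 95 bases downstream of CG7054, a further PEBP gene on the same strand at 22464985 to 22465938.

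**Figure D1:**
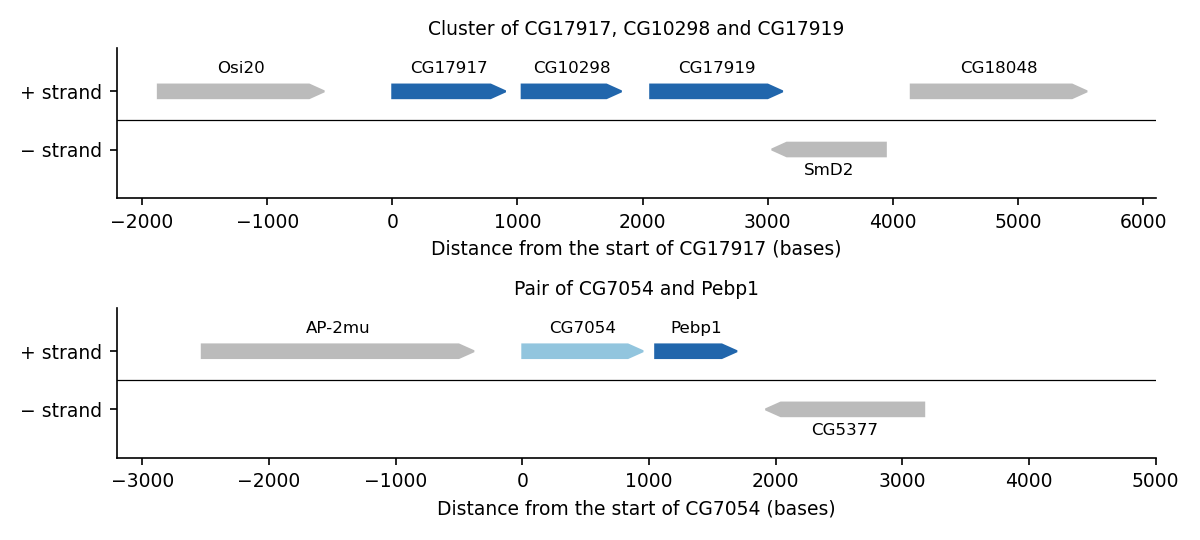
Gene spans of the 2 PEBP loci on chromosome arm 3R, drawn to scale against distance in bases from the start of CG17917 (upper locus) and of CG7054 (lower locus). CG17917, CG10298 and CG17919 follow one another on the plus strand, with gaps of 128 and 229 bases, and SmD2 overlaps the end of CG17919 from the other strand.

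Despite their closeness, the 3 cluster genes had separate patterns. CG17919 was read in every library, CG17917 and CG10298 were read almost only in the immunoprecipitations, and of those 2 CG17917 was higher in the ribosome IPs than in the control IP and CG10298 was not. The fourth member, Pebp1, was near 0 in all 13 libraries.

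CG17917 was one of the most abundant messages of the ribosome IPs. Its CPM was 1280.2, 862 and 937 in the IPs, with ranks of 75, 111 and 98 among all genes. In sorted cells it had 1, 2 and 0 counts in D1, 0, 4 and 1 in miP and 5, 7 and 2 in wild type, from libraries of 18.2 to 26.1 in units of 1e6 counts. The control IP held 200 counts, or 54.0 CPM, at rank 3206. The IPs and the 9 sorted libraries did not overlap, which was true of 71.7% of all genes tested with each IP above each wild-type library, and the control IP fell between them. Mean CPM was 1026 ± 223 in the IPs (SD, n = 3) and 0.207 ± 0.127 in wild-type sorted cells (SD, n = 3), a 4968-fold difference. Libraries were also scaled by trimmed mean of M-values (TMM), which is meant to set the bulk of genes level. The fitted log2 fold change was then 10.75 ± 0.47 (SE), and leaving out any 1 library gave values between 10.36 and 11.23. In this fit the median over all genes tested was 0.76, so the bulk of genes was not fully level. Against the control IP the mean was 19.0-fold higher, with a fitted log2 fold change of 4.65 ± 0.47.

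CG10298 shared the first contrast with CG17917 but not the second. It had 153, 156 and 140.3 CPM in the ribosome IPs. In sorted cells it had 1, 1 and 2 counts in D1, and 0 counts in every miP and wild-type library. The control IP held 813 counts, or 219.7 CPM, above all 3 ribosome IPs. The IP mean of 149.7 ± 8.26 CPM (SD, n = 3) was at least 3532-fold higher than in wild-type sorted cells, from a floor of 3 counts over that group. It was 0.682 times the level of the control IP, with a fitted log2 fold change of -0.16 ± 0.26.

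CG17919 was the member expressed in sorted secondary cells. Its CPM was 402, 314 and 236 in the ribosome IPs, 51.9, 59.5 and 38.5 in D1, 198, 317 and 210.4 in miP, 170.1, 204 and 185 in wild type and 91.3 in the control IP. The D1 libraries were the lowest of all, the miP and wild-type libraries overlapped, and each IP was above each wild-type library. Between the IPs and wild-type sorted cells the direction depended on scaling: mean CPM was 1.70-fold higher in the IPs, while the TMM-scaled log2 fold change was -0.78 ± 0.26. The median gene shifted by 1.57 on the log2 scale between these scalings. Against the control IP, CG17919 was 3.47-fold higher in mean CPM, with a fitted log2 fold change of 2.20 ± 0.44.

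Pebp1 gave 11, 59 and 11 counts in the ribosome IPs, 4, 0 and 4 in D1, 4, 6 and 5 in miP, 3, 0 and 1 in wild type and 3 in the control IP. The highest library reached 2.76 CPM. At this depth its level in sorted cells was at or near the floor, and in every library it lay below CG17919, CG6180, CG7054 and mRpL38.

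**Figure D2:**
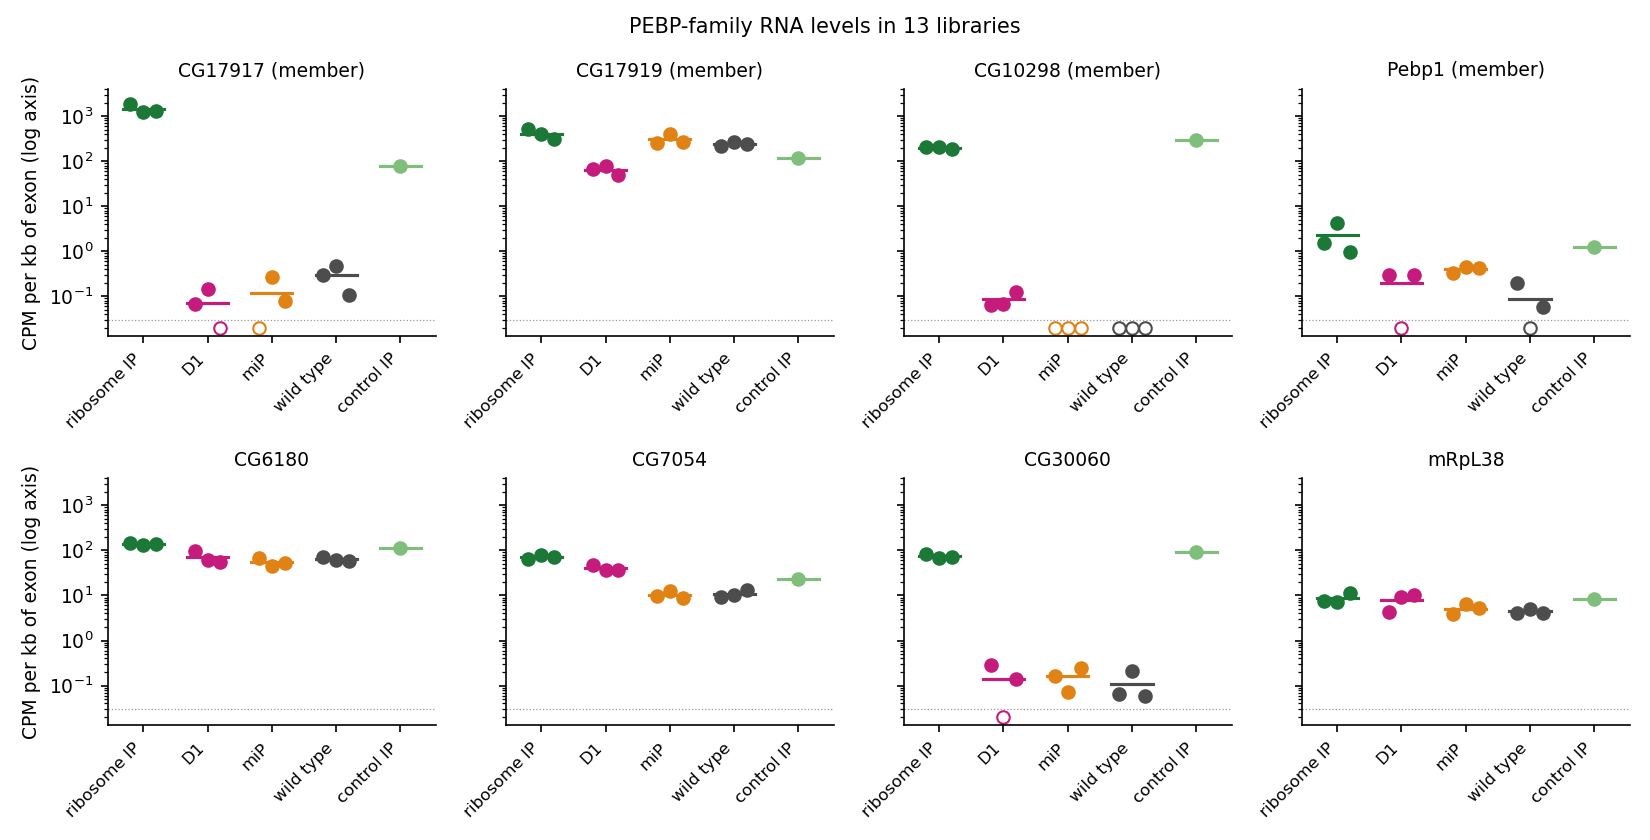
CPM per kilobase of exon, on a log axis, of 8 PEBP-family genes in every library, with groups from left to right ribosome IP, D1, miP, wild type and control IP. Points are libraries, bars are group means, and open circles below the dotted line are libraries with 0 counts. CG17917 and CG10298 are high in both kinds of IP and near 0 in sorted cells, and CG17919 is lowest in D1.

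Set side by side per length, the ribosome IPs, wild-type sorted cells and the control IP each had a different leading gene of the family. In the ribosome IPs the order of mean CPM per kilobase was CG17917 (1454 ± 316), CG17919 (408 ± 107), CG10298 (201 ± 11.1) and CG6180 (139 ± 7.63), none of which overlapped its neighbour (SD, n = 3). CG30060 (74.3 ± 9.85) and CG7054 (71.6 ± 6.38) came next and did not differ beyond their spread, and mRpL38 (8.69 ± 2.49) and Pebp1 (2.26 ± 1.76) were last. In wild-type sorted cells CG17919 led with 239.6 ± 21.9 CPM per kilobase, followed by CG6180 with 63.4 ± 5.73, CG7054 with 10.8 ± 1.97 and mRpL38 with 4.42 ± 0.495. The other genes were below 0.3 CPM per kilobase there. In D1 cells CG6180 (71.6 ± 23.3) and CG17919 (64.2 ± 13.7) overlapped at the top. In the control IP CG10298 led with 295 CPM per kilobase, ahead of CG17919 with 117 and CG6180 with 114, and CG17917 had 76.5. The gene a5 had 0 counts in every library.

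A share within the cluster does not depend on how libraries are scaled. Of the summed CPM per kilobase of the 3 cluster genes, CG17917 took 71.5, 66.6 and 73.0% in the ribosome IPs, 0 to 0.190% in the sorted libraries and 15.7% in the control IP. CG10298 took 8.12, 11.4 and 10.4% in the ribosome IPs and 60.3% in the control IP. CG17919 took 20.4, 22.0 and 16.7% in the ribosome IPs, 99.7 to 100.0% in sorted cells and 24.0% in the control IP. In raw counts, CG17917 stood at 318, 275 and 397% of CG17919 in the ribosome IPs, at 0 to 0.173% in sorted cells and at 59.2% in the control IP.

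**Figure D3:**
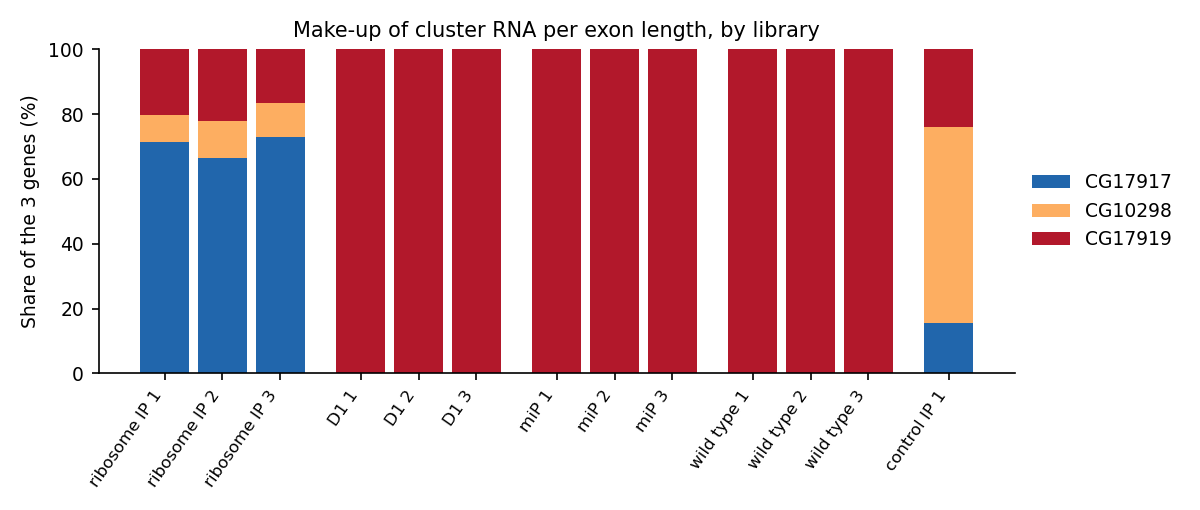
Percent of the summed CPM per kilobase of the tandem cluster taken by CG17917, CG10298 and CG17919, as stacked bars with 1 bar per library. CG17917 takes 66.6 to 73.0% in the ribosome IPs, CG17919 takes at least 99.7% in every sorted library, and CG10298 takes 60.3% in the control IP.

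The miP mutant and wild type could be compared for this share. The log2 ratio of CG17917 to CG17919, each per kilobase and with 0.5 counts added, was -11.4 ± 1.18 in miP and -9.72 ± 0.925 in wild type (SD, n = 3 each). The difference was -1.70, with p = 0.2 in a two-sided exact permutation test. With 3 libraries against 3 this test cannot give less than 0.1, whatever the values. It therefore cannot decide whether the ratio differs, and no conclusion is drawn from it. The ratios rest on 5 counts of CG17917 in all miP libraries and 14 in all wild-type libraries. In miP replicate 1, with 0 counts of CG17917, the ratio of -12.7 rests on the added 0.5 counts.

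The ribosome IPs and the control IP were compared to separate what was pulled down with tagged ribosomes from what came down with GFP alone. Among 10031 genes with at least 10 counts in the control IP, the median ratio of IP to control CPM was 0.741. CG17917, at 19.0, was exceeded by 11 of the other genes, and CG17919 stood at 3.47. CG10298, at 0.682, and CG30060, at 0.819, lay near the median gene. The secondary-cell marker sum had a ratio of 12.7, and 7 of its 9 genes had all 3 IPs above the control. The ratios were 0.963 for Abd-B, 1.65 for Rab19, 3.27 for abd-A and 5.09 for lectin-46Cb. They were 10.7 for CG17575, 10.9 for lectin-46Ca, 15.6 for CG9029, 16.2 for dve and 65.0 for iab-8. At 1.89 CPM in the control IP, iab-8 had fewer than 10 counts there and is not among the 10031 genes. The sums for other cell types had ratios of 0.536 for main cells, 0.304 for ejaculatory duct and bulb, 0.631 for testis germline and 0.728 for muscle. Fat body stood at 0.942, hemocytes at 0.984 and neurons and glia at 2.46, the last mostly from nSyb at 13.4. Most of the hemocyte sum in the IPs came from srp, at a ratio of 1.43, while Hml was at 0.557 and Pxn at 0.391. In wild-type sorted cells srp was at 261 CPM. CG17917 was above the secondary-cell marker sum, while CG10298 lay within the range of the other sums. Ratios above that of CG17917 were found for genes near 0 in wild-type sorted cells, such as Obp99a (ratio 20.7, 1.87 CPM there). They were also found for genes read there, such as GstE7 (ratio 36.6, 54.1 CPM there). Which cells the CG17917 reads of the IPs came from was not tested.

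Markers of those tissues were also read in the ribosome IPs. In the ribosome IPs, testis germline markers summed to 9484 to 10493 CPM and duct and bulb markers to 1986 to 2535 CPM, against 9.49 to 11.9 and 3.49 to 5.06 CPM in wild-type sorted cells and 16023 and 7237 CPM in the control IP. Fat body markers summed to 66.1 to 83.5 CPM in the IPs, 0.170 to 1.23 CPM in wild-type sorted cells and 78.6 CPM in the control IP. Their part in the IP levels of CG17917 and CG10298 was not tested.

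**Figure D4:**
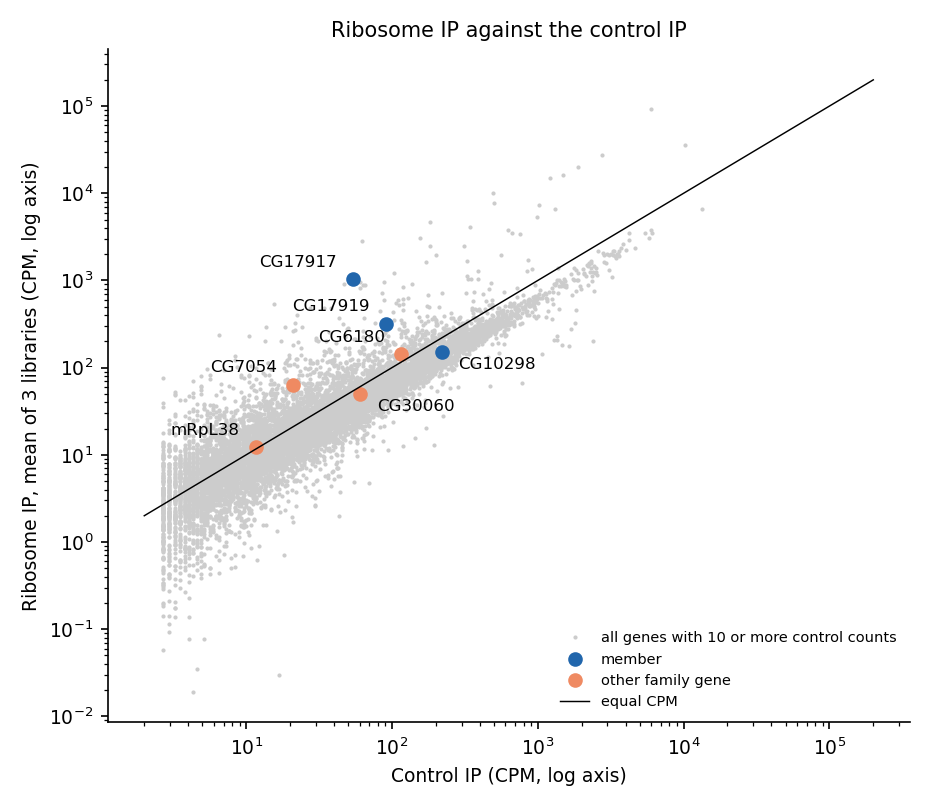
Mean CPM in the 3 ribosome IPs against CPM in the single control IP, both on log axes, for 10031 genes with at least 10 counts in the control; the line marks equal CPM and the PEBP-family genes are labelled. CG17917 lies 19.0-fold above the line, CG17919 and CG7054 lie closer above it, and CG10298 and CG30060 lie just below it.

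Across all genes, 49.1% of 11621 tested were called higher in the ribosome IPs than in wild-type sorted cells and 31.5% lower, so calls in either direction covered 80.6%. Against the control IP, 3.25% of 12723 genes were called higher and 0.267% lower, 3.52% in all. These shares are background to the values of the members, which were chosen on these contrasts and for which no calls are given. CG17917, CG10298 and Pebp1 passed the filter against wild-type sorted cells only through the IPs.

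Among the other family genes, CG30060 was read almost only in the immunoprecipitations and was not tested in sorted cells. It had 57.2, 44.4 and 47.8 CPM in the ribosome IPs, at most 3 counts in a wild-type sorted library and 60.8 CPM in the control IP. The mean was 671.6-fold higher in the IPs than in wild-type sorted cells, a value given as a description, since CG30060 passed the filter there only through the IPs. Against the control IP its log2 fold change was 0.11 ± 0.31 (edgeR quasi-likelihood test, adjusted p = 0.877). CG7054 had 57.9, 69.2 and 64.8 CPM in the ribosome IPs, 8.42, 8.92 and 11.7 CPM in wild-type sorted cells and 21.1 CPM in the control IP. It was higher in the IPs in both comparisons, with log2 fold changes of 1.15 ± 0.21 against sorted cells (edgeR adjusted p = 8.33e-04) and 1.99 ± 0.31 against the control (edgeR adjusted p = 0.0272). The call against the control was lost without ribosome IP replicate 3 (edgeR adjusted p = 0.0704) and in a fit of all 13 libraries (adjusted p = 0.0852). CG6180 had 149.6, 134 and 141 CPM in the IPs, 71.2, 62.7 and 60.0 CPM in wild-type sorted cells and 116 CPM in the control IP. Its TMM-scaled log2 fold change against sorted cells was -0.43 ± 0.16 (edgeR adjusted p = 0.0347), and in plain CPM the direction turned, with the IPs 2.19-fold higher. That call was also lost with DESeq2 (adjusted p = 0.678), with RLE factors, with no filter, in a fit of all 13 libraries and without any 1 wild-type library or ribosome IP replicate 2 or 3. In mRpL38 neither comparison passed the test (edgeR adjusted p = 0.0605 against sorted cells and 0.613 against the control).

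Within sorted cells, CG17919 was lower in D1 than in wild type. Mean CPM was 50.0 ± 10.6 in D1 and 186 ± 17.1 in wild type (SD, n = 3 each), a 3.73-fold lower level with no overlap. Of all genes tested, 3.59% had each D1 library below each wild-type library and 3.78% had each below each miP library. With TMM scaling the values were 40.3 ± 16.6 in D1 and 229 ± 23.4 in wild type, and the fitted log2 fold change was -2.51 ± 0.33. The scaling mattered for the size, since the factors were 0.905 to 1.58 in D1 and 0.798 to 0.831 in wild type, and the median gene shifted by 0.72 on the log2 scale. Leaving out any 1 library kept the log2 fold change between -2.85 and -2.21. Against miP the mean was 4.83-fold lower in D1, with a log2 fold change of -2.65 ± 0.33. In D1 CG17919 stood at 49.5 to 76.5 CPM per kilobase, so it was still read in every D1 library. The secondary-cell marker sum was 351700 to 578893 CPM in D1 and 571686 to 584972 CPM in wild type, and the main-cell sum was 547 to 1838 CPM in D1 and 85.4 to 993 CPM in wild type. Their part in the D1 values was not tested.

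The remaining members could not be fitted in the sorted libraries, as their counts were below the filter. CG17917 had 3 counts over the 3 D1 libraries and 14 over wild type, a ratio of 0.246 between counts pooled per total. By library it was at 0 to 0.103 CPM in D1 and 0.0767 to 0.330 CPM in wild type, so the genotypes overlapped. CG10298 had 4 counts over D1 and 0 over wild type. No interval is given for these, and the intervals from counts given below for miP cover counting error only, since amplified reads are not independent molecules. Of all genes tested, 6.14% were called higher in D1 than in wild type and 3.62% lower (9.77% of 8222). Against miP, 6.74% were called higher in D1 and 3.81% lower (10.5% in all). No calls are given for the members in these comparisons, since the choice of genes used D1.

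Between miP and wild type, CG17919 did not pass the test. Mean CPM was 242 ± 65.4 in miP and 186 ± 17.1 in wild type (SD, n = 3 each). The log2 fold change was 0.15 ± 0.31 (edgeR adjusted p = 0.943), and over 14 alternatives it lay between -0.04 and 0.31, with adjusted p between 0.709 and 1. This comparison called few genes altogether, 7 of 8222 or 0.0851% (2 higher, 0.0243%, and 5 lower, 0.0608%), with 292 at an unadjusted p under 0.05. CG17917 had 5 counts over miP and 14 over wild type, a ratio of 0.439 with an exact 95% interval of 0.124 to 1.29. Pebp1 had 15 counts over miP and 4 over wild type, a ratio of 4.61 with an interval of 1.47 to 19.1, and each miP library exceeded each wild-type library in CPM. Among all genes tested, 10.3% had every miP library above every wild-type library. Fitted without a filter, Pebp1 had a log2 fold change of 1.89 ± 1.45 (edgeR adjusted p = 0.883) and CG17917 one of -1.53 ± 1.46 (edgeR adjusted p = 0.883). CG10298 had 0 counts in both genotypes.

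**Figure D5:**
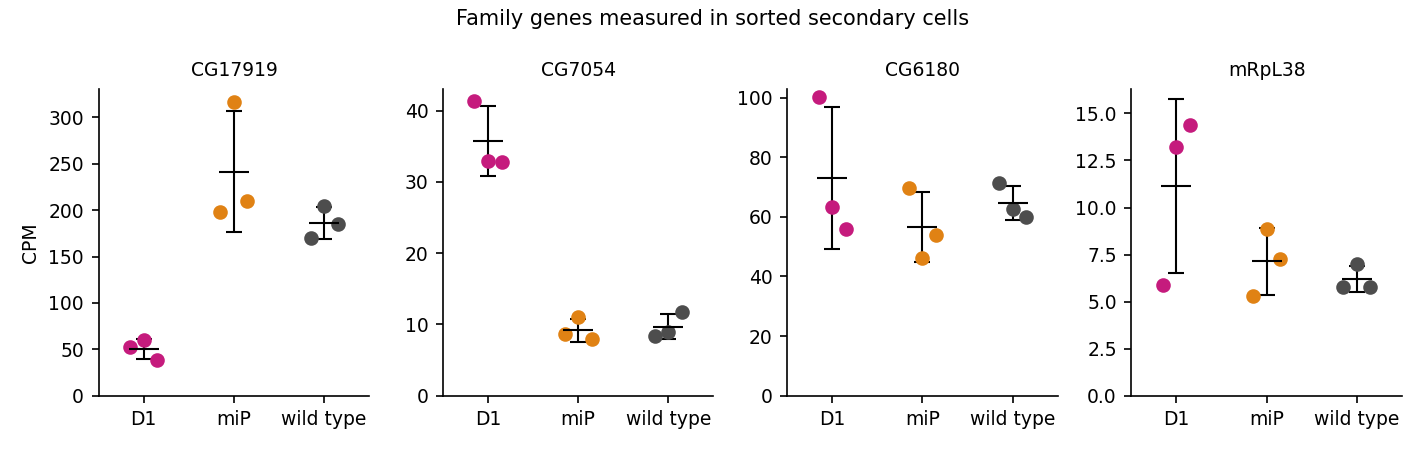
CPM of CG17919, CG7054, CG6180 and mRpL38 in the sorted libraries of D1, miP and wild type, with points for libraries and lines for the mean ± SD (n = 3 each). CG17919 is lower in D1 than in every miP and wild-type library, and CG7054 is higher in D1 than in both.

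Of the other PEBP genes, CG7054 rose in D1, CG6180 and mRpL38 did not pass the test, and CG30060 and a5 were below the filter and not tested. CG7054 had 41.4, 32.9 and 32.8 CPM in D1, 8.60, 11.0 and 7.96 CPM in miP and 8.42, 8.92 and 11.7 CPM in wild type. Every D1 library was above every other sorted library. Of all genes tested between D1 and wild type, 33.1% had each D1 library above each wild-type library, and 24.3% had each above each miP library. The mean was 3.69-fold higher in D1 than in wild type, with a TMM-scaled log2 fold change of 1.30 ± 0.34 (edgeR adjusted p = 0.0407). This call was lost when wild-type replicate 1, 2 or 3 was left out (edgeR adjusted p = 0.168, 0.165 and 0.0892) with only the groups compared (adjusted p = 0.0739) and with a replicate block (adjusted p = 0.0633). Against miP the log2 fold change in D1 was 1.59 ± 0.35 (edgeR adjusted p = 0.0166), and it missed the threshold without miP replicate 2 or 3 (edgeR adjusted p = 0.0516 and 0.0676) and with only the groups compared (adjusted p = 0.0536). In miP against wild type CG7054 gave -0.29 ± 0.34 (edgeR adjusted p = 0.940). Neuron and glia markers, with counts for 5 of 5 in D1 and wild type and 4 of 5 in miP, where repo was at 0, were also higher in D1 as a sum. They summed to 109 to 143 CPM in D1, 12.7 to 16.0 CPM in miP and 30.1 to 35.2 CPM in wild type, mostly from nSyb, a synaptic vesicle fusion protein. As a sum they were lower in each miP library than in each wild-type library, whereas CG7054 overlapped between these genotypes. Their part in the level of CG7054 was not tested.

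CG6180 had 100.1, 63.2 and 55.8 CPM in D1, 69.6, 46.3 and 53.8 CPM in miP and 71.2, 62.7 and 60.0 CPM in wild type. The groups overlapped, and the log2 fold change in D1 against wild type was -0.35 ± 0.42 (edgeR adjusted p = 0.718). Without D1 replicate 1, the highest of the 9 libraries, it was -1.05 (edgeR adjusted p = 0.0164). The mitochondrial ribosomal gene mRpL38 gave 0.09 ± 0.25 in D1 against wild type (edgeR adjusted p = 0.892). In miP against wild type neither passed the test (edgeR adjusted p = 0.940 for CG6180 and 0.981 for mRpL38), though without the first library of both mutants CG6180 gave -0.72 (edgeR adjusted p = 0.0115). Summed over the 9 family genes, CPM was 170.2 ± 28.9 in D1, 315 ± 59.3 in miP and 267 ± 14.3 in wild type (SD, n = 3 each). The sum was 1762 ± 303 in the ribosome IPs and 575 in the control IP. In plain CPM the median gene was itself higher in the ribosome IPs than in wild-type sorted cells, by 1.88 on the log2 scale.

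Genes flanking the members were compared in the same way. Within 10 kb of a member lie 11 genes outside the family, of which 8 were tested in sorted cells. In D1 against wild type, where 9.77% of all genes tested were called, 1 of the 8 passed the test, AP-2mu, a clathrin adaptor subunit next to CG7054. It had 22.8 ± 7.82 CPM in D1 and 26.3 ± 1.76 CPM in wild type (SD, n = 3 each), with a TMM-scaled log2 fold change of -0.94 ± 0.20 (edgeR adjusted p = 0.0144). That call was lost without D1 replicate 2 or without wild-type replicate 1, 2 or 3, with adjusted p up to 0.0752. SmD2, which overlaps the end of CG17919, had 76.2, 22.0 and 30.5 CPM in D1 and 37.1, 34.9 and 38.7 CPM in wild type. Its log2 fold change was -0.21 ± 0.58 (edgeR adjusted p = 0.892), and without D1 replicate 1 it was -1.43 (edgeR adjusted p = 0.00708). Osi20, 543 bases upstream of CG17917, was at 1.70, 0.888 and 4.70 CPM in the ribosome IPs, at most 0.213 CPM in a wild-type library and 0.811 CPM in the control IP. SmD2 had 113 ± 36.0 CPM in the IPs (SD, n = 3) and 43.8 CPM in the control IP. Between the ribosome IPs and wild-type sorted cells, 1 of 8 tested neighbours was called higher, Osi20, which passed the filter only through the IPs, and 6 were called lower with TMM scaling. Of all genes tested there, 49.1% were called higher and 31.5% lower. The call of Osi20 was lost without wild-type replicate 2 or 3 or ribosome IP replicate 3. Of the 6, AP-2mu, Rpn7, CG34376 and CG5377 had a higher mean in the IPs in plain CPM, and the call of Rpn7 was also lost with DESeq2 (adjusted p = 0.419), with RLE factors and without wild-type replicate 2 or 3 or ribosome IP replicate 1 or 3. In miP against wild type 0 of the 8 tested neighbours passed edgeR's test, beside 0.0851% of all genes tested.

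Likeness to the members was measured as Pearson's r of log2 TMM-scaled CPM over libraries, as a description only, because the libraries share preparations and genotypes. Over all 13 libraries and 8084 genes, the 5 genes most like CG17917 were CG9691, CG13947, CG34460, CG13946 and CG9689, with r between 0.995 and 0.997. CG13946 had 1206 ± 218 CPM in the IPs, 0.175 ± 0.0937 CPM in wild-type sorted cells (SD, n = 3 each) and 103 CPM in the control IP. All 5 were below 0.3 CPM on average in every sorted genotype, which is no separate result, since they were picked for likeness to CG17917. CG10298 came at rank 840 with r = 0.953 and CG17919 had r = -0.053, so the third gene of the cluster did not follow CG17917 over these libraries.

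Over the 9 sorted libraries and 5327 genes, the 5 genes most like CG17919 were Acp32CD, DhpD, CG17928, CG8132 and CG17221, with r between 0.986 and 0.994. Acp32CD, an accessory gland protein, had 93411 ± 7468 CPM in D1, 163168 ± 25095 CPM in miP and 138901 ± 4993 CPM in wild type (SD, n = 3 each). DhpD, a dihydropterin deaminase, had 33.5 ± 5.75 CPM in D1, 118 ± 14.4 CPM in miP and 107 ± 3.83 CPM in wild type (SD, n = 3 each). All 5 were lower in each D1 library than in each wild-type library, as were 3.59% of all genes tested. They were picked for likeness to CG17919, which was lowest in D1, so this is no separate result. CG7054 had r = -0.744 with CG17919 and CG6180 had r = 0.394. Over all 13 libraries the genes most like CG17919 were trol, which encodes the basement membrane protein perlecan, CG31690, rdgBbeta, CG13822 and qm, with r between 0.907 and 0.925. In plain CPM, trol, rdgBbeta and qm were higher in the ribosome IPs than in wild-type sorted cells, as was CG17919 (1.70-fold). CG31690 and CG13822 were 9.08-fold and 7.90-fold lower there, so their likeness to CG17919 does not hold for that contrast in plain CPM. For CG17917 no such list was made over the sorted libraries, since it was below 5 CPM there.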

How the data were processed

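Reads per gene were deposited as raw counts for 13 libraries; the authors aligned reads to dm6 with STAR and counted with HTSeq, per the submitters' processing notes, with versions not given in the sources used here. Per the labels' protocols, libraries came from 2 ng of RNA by SMARTer with poly(dT) priming and by Nextera XT tagmentation, sequenced as single reads of 100 nt without strand. The members and lists were chosen with earlier results of these data known. All columns were assigned to samples by label.

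Symbols were matched to the dm6 annotation of Ensembl release 115: 12512 directly, 3996 through a synonym and 219 not. CPM is a count per 1000000 of the library total, and CPM per kilobase divides by merged exonic length. Tests used edgeR 4.0.16 (quasi-likelihood F-test, TMM, filterByExpr, Benjamini-Hochberg at 0.05) in R 4.3.3 with limma 3.58.1. The 9 sorted libraries shared one fit. IPs were fitted with wild type, and with the control, whose single library was assumed to vary like the IPs. The fit was tested on simulated data. Each SE is the log2 fold change divided by the square root of its F value. The paralog ratio had 0.5 counts added, because some libraries had 0. Tables and figures were made with Python 3.11.15, pandas 2.3.3, numpy 2.4.6, scipy 1.17.1 and matplotlib 3.10.9.

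Genes named are the 4 members, 5 further PEBP-domain genes, genes within 10 kb of a member, the 5 highest r with CG17917 and CG17919 among genes with a mean of at least 5 CPM (prior count 2), and markers beside results they touch. Alternatives were DESeq2 1.42.0, RLE factors, no filter, 5 CPM in 3 libraries, each library left out, only the groups compared, all 13 libraries, a replicate block, the first library of both mutants left out and, added after seeing the data, plain CPM. Tests were made without a block. Deviations of same-numbered libraries from their group means correlated between D1 and miP (r = 0.691, 0.399 and 0.525). They did not in every pair between D1 and wild type (-0.215, -0.006 and -0.294) or miP and wild type (-0.017, 0.367 and -0.333). A replicate block changed no call of a PEBP gene in D1 against miP. In D1 against wild type the call of CG7054 was lost with it, as given above.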

Additional observations from a re-analysis of the deposited data

How the results depend on the processing

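CG17919 kept its lower level in D1 under every setting run, and its size moved: the log2 fold change against wild type was -1.90 in plain CPM, -2.58 with a replicate block and -2.85 without the first library of both mutants, and -2.85 to -2.21 with 1 library left out. Against miP it was -2.27 in plain CPM, -2.68 with a replicate block, -3.01 without those first libraries and -2.99 to -2.38 with 1 library left out. Between ribosome IPs and wild-type sorted cells, CG17917 was at 12.28 in plain CPM, and CG17919 at -0.44 with DESeq2, -0.44 with RLE factors and -0.90 to -0.46 with 1 library left out. In plain CPM the direction turned for CG17919 (0.77), CG6180 (1.13), CG34376 (0.18), Rpn7 (1.05), AP-2mu (0.75) and CG5377 (0.16). Plain CPM against the control IP gave 4.25 for CG17917 and 1.80 for CG17919. The paralog ratio in miP against wild type differed by -2.22 to -1.05 with 1 library left out.

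Numbers of called genes moved more. For D1 against wild type, DESeq2 called 771 higher. Without the first library of both mutants 1416 were higher and 1444 lower, and with 1 library left out 233 to 1093 were higher and 137 to 1002 lower. For miP against wild type, DESeq2 called 10 higher and 25 lower, RLE factors 3 lower, a replicate block 1 higher and 3 lower, and the fit without both first libraries 361 higher and 632 lower, while leaving out 1 library left 0 higher and 0 to 3 lower. For D1 against miP, fitting only the groups compared gave 336 higher and 139 lower, the fit without both first libraries 1007 and 732, and leaving out 1 library 334 to 907 higher and 191 to 614 lower. For ribosome IPs against the control, DESeq2 called 946 higher and 138 lower, all 13 libraries together 213 and 4, and no filter 57 lower. Leaving out 1 IP gave 1 to 1433 higher and 0 to 481 lower. Without ribosome IP replicate 3 that comparison called 1 gene. The cause was not tested. Depth limits the sorted-cell values of CG17917, CG10298 and Pebp1, each with at most 15 counts over a genotype.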

Other observations

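Genes singled out in this paragraph were chosen after their values were seen. The 11 genes with a higher ratio of ribosome IP to control IP than CG17917 included 3 glutathione S-transferases, GstE7 (36.6), GstD2 (22.1) and GstD3 (20.4), and the odorant-binding protein gene Obp99a (20.7). The others were CG43249 (45.8), CG9451 (34.7), CG14695 (28.3), scpr-B (25.3), CG42870 (21.2), CG12111 (19.9) and CG42827 (19.6). Obp99a had a mean of 10130 CPM in the ribosome IPs, 1.87 CPM in wild-type sorted cells and 490 CPM in the control IP. The gene scpr-B, which encodes a secreted cysteine-rich protein, had means of 4628 CPM in the ribosome IPs, 0.821 CPM in wild-type sorted cells and 183 CPM in the control IP. GstE7 differed from these in that it was also read in sorted cells, at 54.1 CPM in wild type, beside 237 CPM in the ribosome IPs and 6.48 CPM in the control IP. Among 11541 genes fitted in both IP comparisons, 495 had a larger log2 fold change than CG17917 against wild-type sorted cells and 402 had a larger one against the control IP. Only 6 genes exceeded it in both, namely CR45633, CG17324, scpr-B, CG6074, Obp99a and CG42827. Of these, CR45633, CG17324 and CG6074 were at 0 CPM in wild-type sorted cells and at 0, 0.540 and 1.62 CPM in the control IP. Their fold changes therefore rest on values at or near the floor. These ranks are a description, since CG17917 was chosen with its IP levels known.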
